A study of Mus musculus with 4 samples.

Results

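NF-kB is a family of dimeric transcription factors held in the cytoplasm by inhibitor proteins, and 10 genes of its core were named for this account: subunits, inhibitors of the I-kappa-B family and a feedback gene. The members were all probe sets annotated to exactly 1 of these symbols on the array. They came to 18 probe sets of 9 genes, out of 45101 probe sets and 18193 genes in all. The other named gene, a subunit gene, was not analysed here. Measured members were the 4 subunit genes Rela, Relb, Rel and Nfkb2, the 4 I-kappa-B family genes Nfkbia, Nfkbie, Nfkbiz and Bcl3, and Tnfaip3, which encodes the feedback enzyme A20.

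In a resting cell the I-kappa-B proteins bind NF-kB dimers and mask their nuclear import signal. Cytokines and microbial products activate the I-kappa-B kinase complex, the inhibitor is destroyed and the freed dimers switch on inflammatory and survival genes, among them the genes of their own inhibitors. In the liver the pathway acts in hepatocytes, where it protects against death triggered by tumor necrosis factor, and in resident macrophages, where it drives cytokine production.

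The samples were 4 mouse liver tumor samples, each on 1 Affymetrix mouse array, and the labels do not say that they came from separate animals. The tumors had grown from liver progenitor cells (LPCs) placed into the livers of recipient mice, and all carried HrasV12 and a tet-off hairpin against p53 (shp53). In p53 on tumors (n = 2 arrays) the mice had received Doxycycline for 8 days, which shuts the hairpin off. In p53 off tumors (n = 2 arrays) it had been given for 0 days. The promoter of the hairpin, the number of clones behind the LPCs and the strain and age of the recipients were not stated in the labels. Recipient mice keep their own immune, vascular and stromal cells, so each array reads tumor and host RNA together. No sample had Doxycycline without the hairpin, so restored p53, the drug and 8 days of time cannot be told apart.

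Array medians lay at 7.39 and 7.39 on the log2 scale in p53 on and at 7.34 and 7.29 in p53 off. The p53 targets Cdkn1a and Mdm2 rose in p53 on, by 1.44 ± 0.099 and 0.83 ± 0.079 (log2, SE). The 3'-to-5' difference of the beta-actin controls, which tracks RNA quality, was 0.478 and 0.492 in p53 on and 0.395 and 0.262 in p53 off, and its part in the results was not tested. Over all genes 28.7% passed an adjusted p of 0.05 in limma (14.0% higher and 14.7% lower in p53 on), and in 36.3% both p53 on arrays lay above both p53 off arrays. Of the 5 hepatocyte markers, Alb (7.39 and 6.96 in p53 on, 7.07 and 7.06 in p53 off) and Apoa1 (7.11 and 7.19 in p53 on, 7.11 and 7.19 in p53 off) lay near or below the array medians. Ttr (8.87 and 8.83 in p53 on, 8.82 and 8.79 in p53 off) and Cyp3a11 (7.72 and 7.71 in p53 on, 7.42 and 7.64 in p53 off) lay above them, and Apob lay below them in p53 on (7.03 and 6.76) and above them in p53 off (9.87 and 10.47). The array values carry no detection call. P-values measure the spread between these samples only, which may be technical, since the labels do not say that replicates were separate animals.

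Of the 9 measured NF-kB genes 2 rose in p53 on, Nfkbia and Nfkbie, both of which encode cytoplasmic inhibitors. That is 2 of 9 beside 14.0% of all genes called higher, a count that says little about the set. None fell by limma (0 of 9, and 0 of 9 at an unadjusted p under 0.05, beside 14.7% of all genes called lower). The median change of the 9 genes was 0.107, against 0.0228 over all genes. Both p53 on arrays lay above both p53 off arrays for 5 of the 9 genes and below them for 1, beside 36.3% and 30.4% of all genes. By the brightest probe set of each gene, Nfkbie alone was called with a change of at least 1 on the log2 scale, beside 5.28% of all genes. That probe set is marked as shared between transcripts, and by its other probe set Nfkbie was called at 0.92. Without p53 off replicate 2 the count of genes that rose was 1, and without p53 on replicate 1 it was 4.

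**Figure D1:**
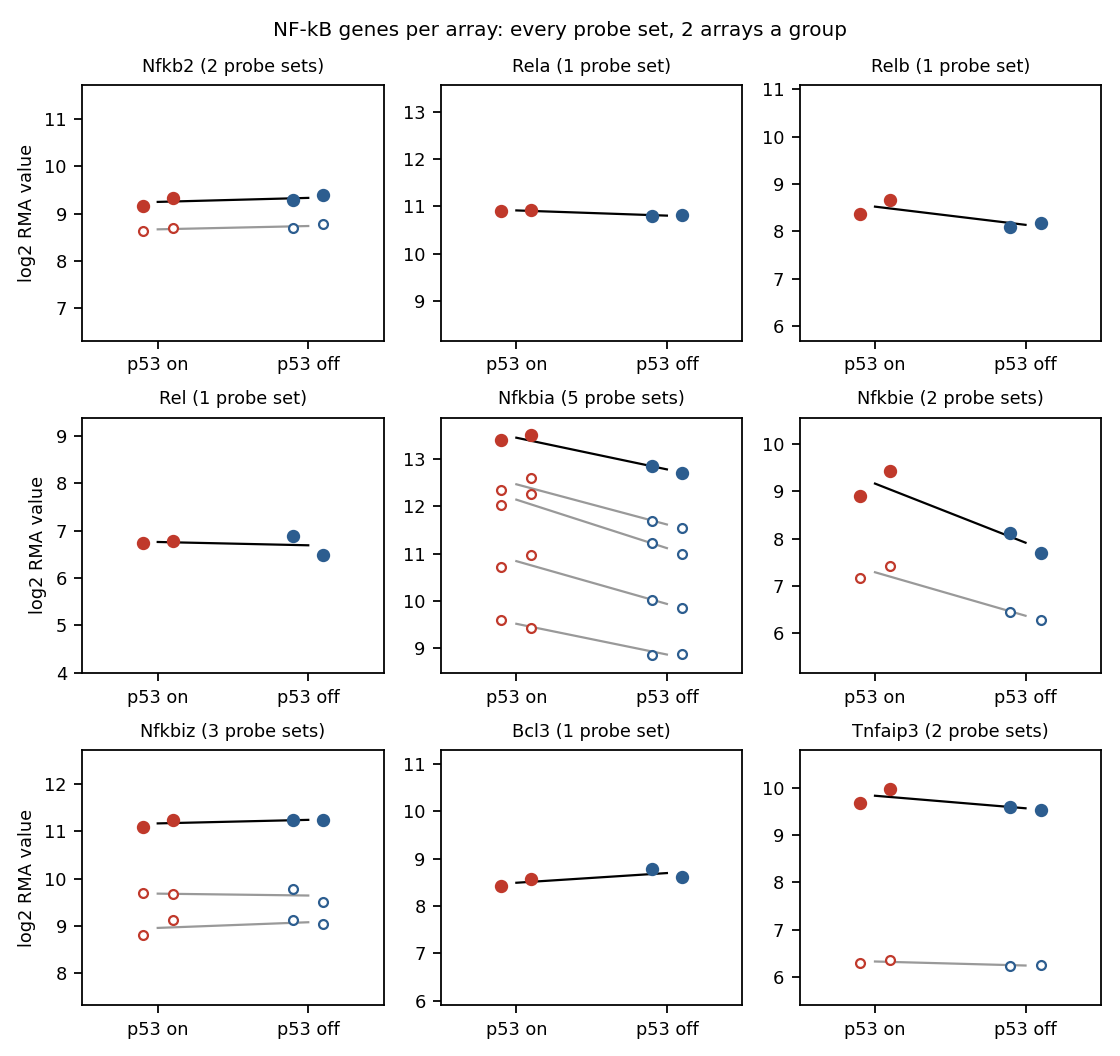
Log2 RMA values of every probe set of the 9 NF-kB genes, p53 on arrays (red) left of p53 off arrays (blue), 2 arrays a group; filled points are the brightest probe set, which stands for the gene, open points the others, lines join group means, and every panel spans the same number of log2 units. All 5 probe sets of Nfkbia and both of Nfkbie lie higher in p53 on, and those of Nfkb2 and Nfkbiz overlap between the groups.

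Rela encodes the main activating subunit of the canonical pathway. Its log2 value was 10.90 and 10.93 in p53 on tumors, against 10.79 and 10.82 in p53 off tumors. The arrays of each group lay within a narrow band and the bands did not overlap, but the step between them was small. It was 0.11 ± 0.072 (SE; 95% interval -0.07 to 0.29; limma adjusted p = 0.330), so any change of the Rela transcript beyond 0.29 on the log2 scale lies outside the interval.

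Relb encodes the subunit of the non-canonical pathway, which responds to lymphotoxin and related ligands. Values were 8.37 and 8.67 in p53 on and 8.10 and 8.17 in p53 off. Both p53 on arrays were the higher ones, and they differed from each other by more than the p53 off arrays did. The difference was 0.39 ± 0.12 (1.31-fold; interval 0.10 to 0.68), with a limma adjusted p = 0.0579 that missed the threshold. It was called in 3 of 16 alternatives: without p53 on replicate 1 (0.53; limma adjusted p = 0.0110), with spike-in scaling (0.52; 0.0209) and with the dimmest 40% of genes left out (0.39; 0.0417).

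Nfkb2 encodes the precursor that is cut to make the partner of the Relb protein. Its brighter probe set read 9.17 and 9.33 in p53 on, against 9.28 and 9.39 in p53 off. The groups overlapped, and the difference of -0.09 ± 0.091 (interval -0.31 to 0.14; limma adjusted p = 0.537) had the opposite sign with spike-in scaling. The second probe set, marked as likely to cross-hybridize, gave -0.07 ± 0.079.

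Rel encodes c-Rel, a subunit used chiefly by lymphocytes and myeloid cells. It read 6.73 and 6.79 in p53 on and 6.89 and 6.49 in p53 off. Here the p53 off arrays lay on either side of the p53 on pair. The difference was 0.06 ± 0.14 with a wide interval (-0.29 to 0.42; limma adjusted p = 0.783), and its sign turned without p53 off replicate 2 (-0.14) and under median centring (-0.01). Rel belongs to the 40% of genes with the lowest mean values, where a change can be compressed.

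Nfkbia encodes I-kappa-B-alpha, the inhibitor that NF-kB itself induces within minutes of activation. In p53 on tumors its brightest probe set read 13.40 and 13.50, against 12.86 and 12.70 in p53 off tumors. The groups stood clearly apart, with each pair closer together than the gap between pairs. The rise was 0.67 ± 0.091 on the log2 scale (1.59-fold; interval 0.44 to 0.90; limma adjusted p = 0.00517). It was called in all 16 alternatives, where it ran between 0.59 and 0.82 and the adjusted p between 0.00195 and 0.0417.

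Nfkbia is the member with most probe sets, and none of the 5 had overlapping groups. The probe set 1449731_s_at, marked as shared between transcripts, read 12.03 and 12.25 in p53 on, against 11.23 and 11.00 in p53 off, and showed the largest of the 5 differences at 1.03 ± 0.12. The smallest was that of 1420089_at, at 0.65 ± 0.086 (9.60 and 9.43 in p53 on, 8.85 and 8.88 in p53 off). The remaining probe sets, 1438157_s_at, which carries the same mark, and 1448306_at, gave 0.84 ± 0.11 and 0.90 ± 0.12. Adjusted over all 45037 probe sets that are not controls, of which 11.3% were called higher, every one of the 5 passed in limma (adjusted p from 0.00364 for 1449731_s_at to 0.00582 for 1420088_at).

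Nfkbie encodes I-kappa-B-epsilon, an inhibitor that is resynthesised more slowly and binds mainly Rela and Rel dimers. The log2 values of its brighter probe set, 1458299_s_at, were 8.90 and 9.43 in p53 on and 8.13 and 7.70 in p53 off. Groups did not overlap, and the arrays within each group differed more than for any other member. The rise of 1.25 ± 0.22 (2.38-fold; interval 0.71 to 1.80; limma adjusted p = 0.0107) was the largest of the 9 genes in the values reported. It was called in 15 of 16 alternatives and was lost without p53 off replicate 2 (1.04; limma adjusted p = 0.0625; range over the alternatives 0.00224 to 0.0625).

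The second Nfkbie probe set, 1431843_a_at, had a tighter spread, with 7.16 and 7.42 in p53 on against 6.45 and 6.29 in p53 off. It rose by 0.92 ± 0.12 (limma adjusted p = 0.00487 over all probe sets), so both probe sets of the gene moved the same way.

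Nfkbiz encodes I-kappa-B-zeta, a nuclear member of the family that helps NF-kB activate secondary response genes such as Il6. It read 11.09 and 11.25 in p53 on, against 11.24 and 11.25 in p53 off. The higher p53 on array lay level with the p53 off pair. The difference was -0.08 ± 0.086 (interval -0.29 to 0.14; limma adjusted p = 0.560), and its sign turned under quantile normalization and under spike-in scaling. The other 2 probe sets gave 0.04 ± 0.11 and -0.12 ± 0.12, and neither was called.

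Bcl3 encodes a nuclear I-kappa-B protein that binds subunit homodimers on DNA. Values were 8.42 and 8.56 in p53 on and 8.78 and 8.61 in p53 off. Both p53 on arrays were lower, by a margin smaller than the spread within each pair. The difference was -0.20 ± 0.097 (interval -0.44 to 0.04; limma adjusted p = 0.193). It kept its sign in all 16 alternatives and was called in none of them (adjusted p from 0.0726 to 0.646; 0 of 16 by limma, whose unadjusted p in the values reported was 0.0916).

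Tnfaip3 encodes A20, an enzyme that edits ubiquitin chains on upstream signalling proteins and so limits NF-kB activation. It read 9.68 and 9.98 in p53 on, against 9.60 and 9.53 in p53 off. The lower p53 on array lay just above the p53 off pair and the other well above it. The difference was 0.27 ± 0.12 (interval -0.03 to 0.56; limma adjusted p = 0.155), and it passed in 1 of 16 alternatives, without p53 on replicate 1 (0.42; limma adjusted p = 0.0244; range 0.0244 to 0.456). Its second probe set was low, with 6.30 and 6.35 in p53 on and 6.22 and 6.26 in p53 off, and gave 0.08 ± 0.072.

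**Figure D2:**
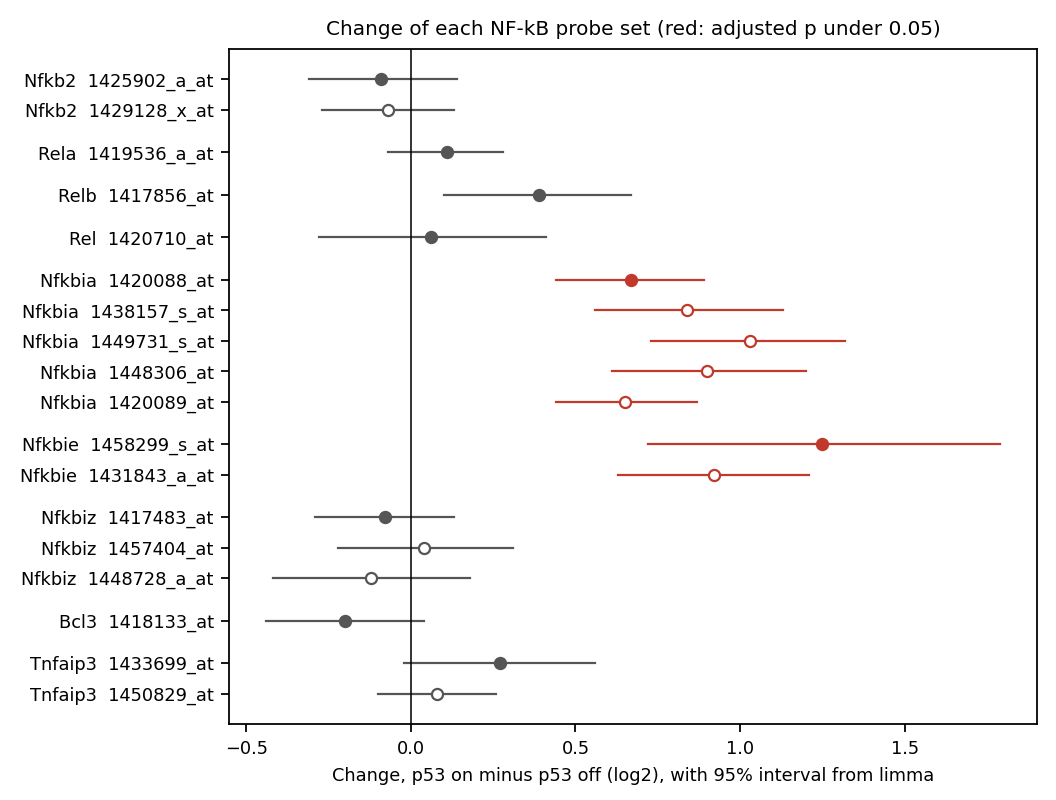
Change of each of the 18 probe sets (p53 on minus p53 off, log2) with the 95% interval from limma, fitted over all probe sets; filled points are the probe set that stands for the gene and red marks an adjusted p under 0.05. The 5 Nfkbia and 2 Nfkbie probe sets lie between 0.65 and 1.25, and the other 11 lie between -0.20 and 0.39.

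**Figure D3:**
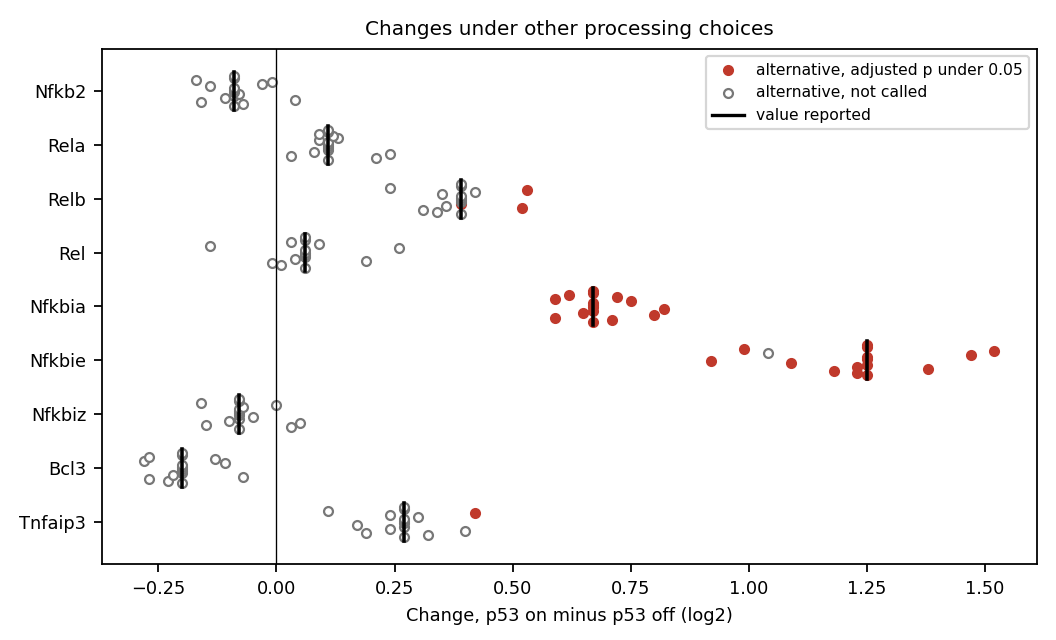
Change of each NF-kB gene (p53 on minus p53 off, log2) under every alternative (points; red where the adjusted p is under 0.05) and as reported (black line). Nfkbia lies between 0.59 and 0.82 and Nfkbie between 0.92 and 1.52, while Nfkb2, Rel and Nfkbiz have values on both sides of 0.

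The promoters of Nfkbia and Nfkbie are shown because these genes rose, and those of Nfkb2 and Tnfaip3 because NF-kB is known to induce them too. Each is the 250 bases before the start, 5′ to 3′ on the gene's strand, from RefSeq (GRCm38.p6), and capitals mark a form of the kappa-B site on either strand: GGG, any 2 letters, TT, any 1 letter and CC.
Nfkbia, chr12:55492648-55492897, minus strand: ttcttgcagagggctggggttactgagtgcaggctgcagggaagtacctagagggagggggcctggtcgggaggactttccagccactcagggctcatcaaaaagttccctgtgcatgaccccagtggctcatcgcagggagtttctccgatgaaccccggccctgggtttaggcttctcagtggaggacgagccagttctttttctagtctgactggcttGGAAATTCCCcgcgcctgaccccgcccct
Nfkbie, chr17:45555450-45555699, plus strand: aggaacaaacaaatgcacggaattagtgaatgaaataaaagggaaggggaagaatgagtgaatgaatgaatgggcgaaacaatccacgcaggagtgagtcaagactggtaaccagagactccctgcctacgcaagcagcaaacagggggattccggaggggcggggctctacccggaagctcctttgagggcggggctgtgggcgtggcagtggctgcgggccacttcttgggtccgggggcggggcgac
Nfkb2 (the first of its 3 listed starts), chr19:46304487-46304736, plus strand: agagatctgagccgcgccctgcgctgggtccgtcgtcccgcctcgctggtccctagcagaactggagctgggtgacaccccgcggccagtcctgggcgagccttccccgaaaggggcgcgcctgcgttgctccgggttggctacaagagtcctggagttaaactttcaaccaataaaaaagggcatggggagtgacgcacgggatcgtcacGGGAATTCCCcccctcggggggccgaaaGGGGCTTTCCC
Tnfaip3 (the one of its 2 listed starts with a match), chr10:19015411-19015660, minus strand: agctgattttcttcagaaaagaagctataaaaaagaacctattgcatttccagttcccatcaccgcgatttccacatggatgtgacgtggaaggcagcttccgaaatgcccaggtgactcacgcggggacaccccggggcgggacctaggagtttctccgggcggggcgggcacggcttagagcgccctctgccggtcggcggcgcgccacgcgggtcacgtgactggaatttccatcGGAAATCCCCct
RefSeq promoters were matched for 7 of the 9 measured genes, all but Relb and Nfkbiz. A match was found in 4 of these 7 genes, Nfkb2, Rel, Nfkbia and Tnfaip3, against 4.71% of all 27025 genes with a promoter in the table (4.11% of promoters). The genes were named for their place in NF-kB signalling and its feedback, so this share reflects how they were chosen. In Nfkbia the match is GGAAATTCCC, starting 29 bases before the start. In Nfkb2 the palindrome GGGAATTCCC reads as a match on both strands, and 2 overlapping matches, starting 11 and 10 bases before the start, run up to it. Of the Nfkb2 starts not shown, 1 had the match GGGACTTTCC, starting 225 bases before it, and the other had none. Nfkbia held this form and rose. Nfkb2, Rel and Tnfaip3 held it with differences of -0.09, 0.06 and 0.27 that were not called. Nfkbie rose with no match to this form in the window, and Rela and Bcl3 had no match and were not called. Other forms of the kappa-B site were not searched for, so a gene without a match here may still hold one. A match is a string of letters, not a site shown to be bound.

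By the smallest distance between log2 profiles over the 4 arrays, each centred on its own mean, the genes most like Nfkbie were searched for among 16321 others. They were Myl9, a light chain of smooth muscle myosin (distance 0.129; 10.48 and 11.11 in p53 on, 9.64 and 9.34 in p53 off), Egflam, an extracellular matrix protein gene (0.138), and Chst2, a sulfotransferase gene (0.175). Their changes were 1.30, 1.37 and 1.25, and in each gene p53 on replicate 2 lay above replicate 1. That of Myl9 lost its call without p53 off replicate 2 (1.15; limma adjusted p = 0.0707), and Chst2 was at 0.53 averaged over its probe sets. With 4 arrays such a profile holds little beyond the group difference.

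The rest of the pathway was read from 5 lists, which named 108 genes, 99 of them measured. Of these 32 rose and 20 fell, beside 14.0% and 14.7% of all genes (median change 0.0671, against 0.0228 over all genes). Without p53 off replicate 1 the counts were 18 and 16, and without p53 off replicate 2 they were 13 and 15.

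Of 14 genes of the I-kappa-B kinases, other kinases of the pathway and their partner subunits, 3 rose and 4 fell, beside 14.0% and 14.7% of all genes (median -0.0550). Map3k8, a kinase that links Toll-like and tumor necrosis factor receptors to ERK, read 7.29 and 7.44 in p53 on against 6.19 and 6.09 in p53 off, and rose by 1.22 ± 0.089. Rps6ka5, which phosphorylates the Rela protein, rose by 0.55 ± 0.097 (0.24 averaged over its probe sets). Irak2, a kinase of interleukin-1 and Toll-like receptor signalling, fell by 1.09 ± 0.13, with 9.42 and 9.61 in p53 on against 10.45 and 10.74 in p53 off. Tab3, a binding subunit of the TAK1 kinase, changed by -0.92 ± 0.084, and the casein kinase gene Csnk2a1 by -0.58 ± 0.081. Ikbkg, the regulatory subunit of the I-kappa-B kinase, changed by -0.41 ± 0.077. The remaining gene that rose was Ikbke, another I-kappa-B kinase gene, at 0.28 ± 0.072 (limma adjusted p = 0.0375). The catalytic subunit gene Ikbkb and the non-canonical kinase gene Map3k14 were at -0.14 ± 0.077 and 0.07 ± 0.071. Neither was called (limma adjusted p = 0.234 and 0.532). Ikbke, Ikbkb and Map3k14 were picked out after their values were seen. Without p53 off replicates 1 and 2 the adjusted p was 0.0616 and 0.0739 for Rps6ka5 and 0.0870 and 0.0621 for Ikbkg (also 0.0593 with spike-in scaling), and the count of genes that rose was 1 in each case.

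Among adaptors and ubiquitin ligases 5 of 16 rose and 0 fell by limma, 1 of them lower at an unadjusted p under 0.05 (median 0.170), beside 14.0% of all genes higher and 14.7% lower. Birc3 and Birc2, the ligases that place ubiquitin chains at the tumor necrosis factor receptor and keep the non-canonical kinase low, rose by 0.83 ± 0.11 and 0.56 ± 0.075. Birc3, which is also induced by NF-kB, read 11.25 and 11.51 in p53 on and 10.62 and 10.49 in p53 off. Myd88, the adaptor of most Toll-like receptors, rose by 0.50 ± 0.092 and Traf5, an adaptor of tumor necrosis factor receptors, by 0.44 ± 0.098. Ticam1, the adaptor of Tlr3, rose by 0.28 ± 0.075 (0.21 under median centring, not called). Of these, Birc3 and Birc2 kept their calls without each array in turn. Without p53 off replicates 1 and 2 the limma adjusted p was 0.0788 and 0.0651 for Myd88, 0.0542 and 0.147 for Traf5 and 0.112 and 0.230 for Ticam1. Without p53 on replicates 1 and 2 that of Ticam1 was 0.0734 and 0.102, and without p53 on replicate 2 that of Traf5 was 0.0581. The count of genes that rose was 2 without either p53 off array and 3 without p53 on replicate 2.

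Of 19 other inhibitors of the pathway 4 rose and 3 fell (median 0.0241), counts near the 14.0% and 14.7% of all genes. Pdlim2, which directs the Rela protein to degradation in the nucleus, read 10.36 and 10.66 in p53 on and 9.23 and 9.10 in p53 off. Its rise of 1.34 ± 0.12 (limma adjusted p = 0.00151) was the largest in this list. Irak3, a kinase-dead brake on Toll-like receptor signalling found mainly in macrophages, rose by 0.71 ± 0.083 (0.46 averaged over its probe sets), Nfkbid, another nuclear I-kappa-B gene, by 0.40 ± 0.085 and Tollip, which holds Irak1 inactive, by 0.32 ± 0.087. Otud7b, a deubiquitinase, changed by -0.42 ± 0.088 and Nkiras1, a small GTPase that binds I-kappa-B, by -0.31 ± 0.087 (limma adjusted p = 0.0498). The remaining I-kappa-B gene Nfkbib, named after its value was seen, was at -0.08 ± 0.096 (limma adjusted p = 0.612). Pdlim2 and Irak3 were called without each array in turn. Without p53 off replicate 2 the limma adjusted p was 0.130 for Nfkbid, 0.185 for Tollip, 0.0528 for Otud7b and 0.113 for Nkiras1, and without p53 off replicate 1 it was 0.164, 0.107 and 0.221 for Tollip, Otud7b and Nkiras1. Without p53 on replicate 1 it was 0.0550 for Nkiras1, and without p53 on replicate 2 it was 0.125 for Tollip and 0.133 for Nkiras1. Averaging over probe sets put Otud7b at -0.19 and Tollip at 0.27, and median centring put Tollip at 0.25, none of them called. Spike-in scaling put Otud7b at -0.28 and Nkiras1 at -0.18, neither called. The count of genes that fell was 0 without either p53 off array and 1 without either p53 on array, and the count that rose was 2 without p53 off replicate 2.

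Receptors and ligands that feed the pathway were called in 15 of 20 cases, 10 higher and 5 lower (median 0.309), beside 28.7% of all genes called, 14.0% higher and 14.7% lower. The ligand genes Tnfsf11, which encodes RANKL (6.05 and 6.68 in p53 on, 8.53 and 8.07 in p53 off) and Il1b (10.09 and 10.23 in p53 on, 11.80 and 11.65 in p53 off) fell by 1.93 ± 0.25 and 1.56 ± 0.093. Tnfrsf12a, the receptor of TWEAK, changed by -1.27 ± 0.091 and Il1rap, the shared subunit of interleukin-1 receptors, by -1.22 ± 0.10. The Toll-like receptor genes Tlr3 and Tlr2 rose by 0.87 ± 0.092 and 0.82 ± 0.086. Averaged over their probe sets, Tnfsf11 was at -1.14 and Il1rap at -0.63, both still called. The count of genes that rose was 5 and 4 without p53 off replicates 1 and 2.

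Of 30 known NF-kB targets measured, 10 rose and 8 fell, beside 14.0% and 14.7% of all genes (median 0.0352). Those that fell included Ptgs2, which encodes an inducible prostaglandin synthase and read 9.60 and 9.33 in p53 on against 12.41 and 12.35 in p53 off (-2.91 ± 0.11). The cytokine genes Il6 and Csf2 were at -2.43 ± 0.27 and -1.71 ± 0.094, and the stress response gene Ier3 at -1.72 ± 0.087. On the other side stood the adhesion molecule gene Vcam1 (2.40 ± 0.074, and 1.45 averaged over its probe sets) and Cd83, a surface protein of mature dendritic cells (9.29 and 8.81 in p53 on, 7.11 and 7.17 in p53 off; 1.91 ± 0.16). These 6 genes were called without each array in turn. The count of genes that rose was 4 without p53 off replicate 2.

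**Figure D4:**
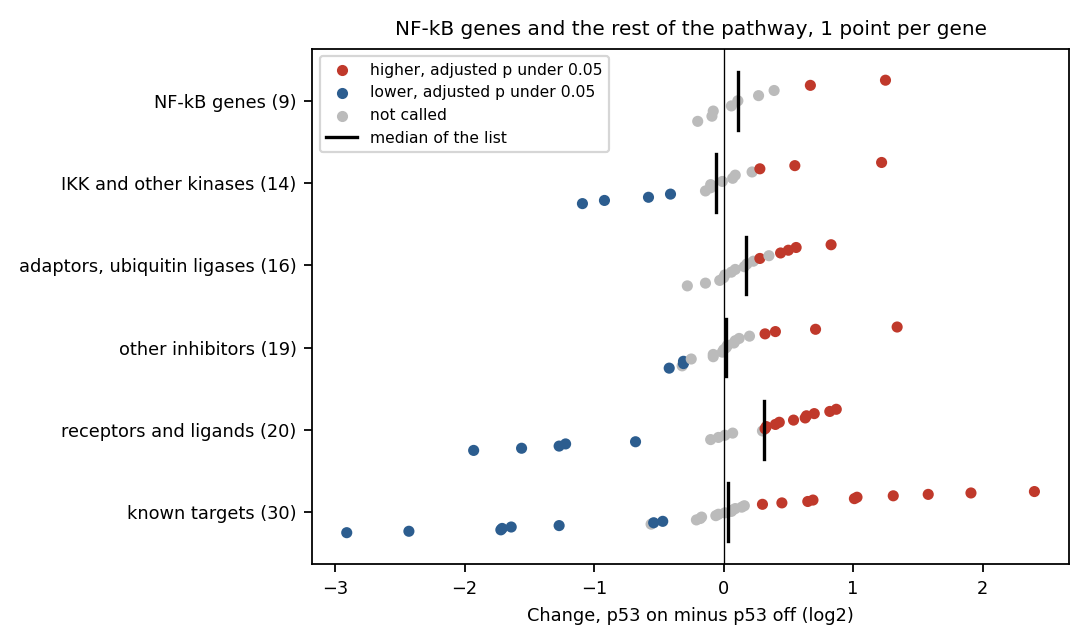
Change of each measured gene (p53 on minus p53 off, log2), 1 point per gene, for the 9 NF-kB genes and the 5 other pathway lists; red and blue mark genes called higher and lower at an adjusted p under 0.05 and the black line is the list's median. Medians lie between -0.0550 and 0.309, while single targets run from -2.91 to 2.40.

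Markers of host cells were read in the same arrays, beside 14.0% of all genes called higher and 14.7% lower. Of 5 markers of all leukocytes 4 rose and 0 fell by limma (0 lower at an unadjusted p under 0.05), and their summed level, on the linear scale, was 17768 to 18118 in p53 on and 12445 to 13148 in p53 off. For macrophages 4 of 8 rose (Adgre1, Csf1r, Cd68 and Lyz2), and the sum was 25627 to 30790 in p53 on and 14544 to 16070 in p53 off. The others were not called: Mrc1 was at 0.17, Cd163 at 0.35, Marco at -0.08 and Itgam at -0.17. Brighter genes weigh more in such a sum. All 5 endothelial and all 5 fibroblast markers rose, with sums of 2496 to 3455 and 72361 to 73521 in p53 on and of 1632 to 1663 and 41271 to 46468 in p53 off. Among dendritic cell markers 3 of 4 rose (2952 to 3126 in p53 on, 1250 to 1296 in p53 off), and so did all 3 NK cell markers (546 to 611 in p53 on, 398 to 403 in p53 off). The NK cell markers were dim. Ncr1 lay below the array medians in both groups (6.86 and 7.18 in p53 on, 6.35 and 6.32 in p53 off). Klrk1 (7.35 and 7.31) and Eomes (7.31 and 7.31) lay near the medians in p53 off.

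Of 4 neutrophil markers 1 rose, Csf3r (sums 921 to 1347 in p53 on, 887 to 1506 in p53 off). For T cells 0 of 5 and for B cells 0 of 4 were called by limma, with 1 and 0 at an unadjusted p under 0.05 (sums 677 to 681 and 444 to 445 in p53 on, 611 to 634 and 418 to 442 in p53 off). All 5 epithelial markers were called, 4 lower and 1, Epcam, higher, beside 28.7% of all genes called (sums 15632 to 16351 in p53 on, 37198 to 42858 in p53 off). Of 5 hepatocyte markers Apob fell and the other 4 were not called. The summed level of the 5 was 1044 to 1114 in p53 on and 1829 to 2344 in p53 off, while the largest change among the other 4 was 0.18, that of Cyp3a11.

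Nfkbia, Nfkbie, Birc3, Map3k8, Irak3, Tlr2 and Cd83 rose in the same arrays as those leukocyte, macrophage, endothelial and fibroblast markers that were called. Il6, Ptgs2 and Tnfsf11 fell beside 4 of the 5 epithelial markers. These genes were chosen by no set rule and grouped here by their direction. Vcam1 and Pdlim2 also rose, and Csf2, Ier3, Tnfrsf12a and Irak2 also fell. In these arrays any gene called higher moves with any marker called higher, so the grouping does not tie a gene to a cell type. Il1b fell by 1.56 where the called macrophage markers rose, and the epithelial marker Epcam rose by 0.52. The part of these cell types in the results was not tested. In bulk tumors fewer cells of a type and less RNA per cell cannot be told apart.

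**Figure D5:**
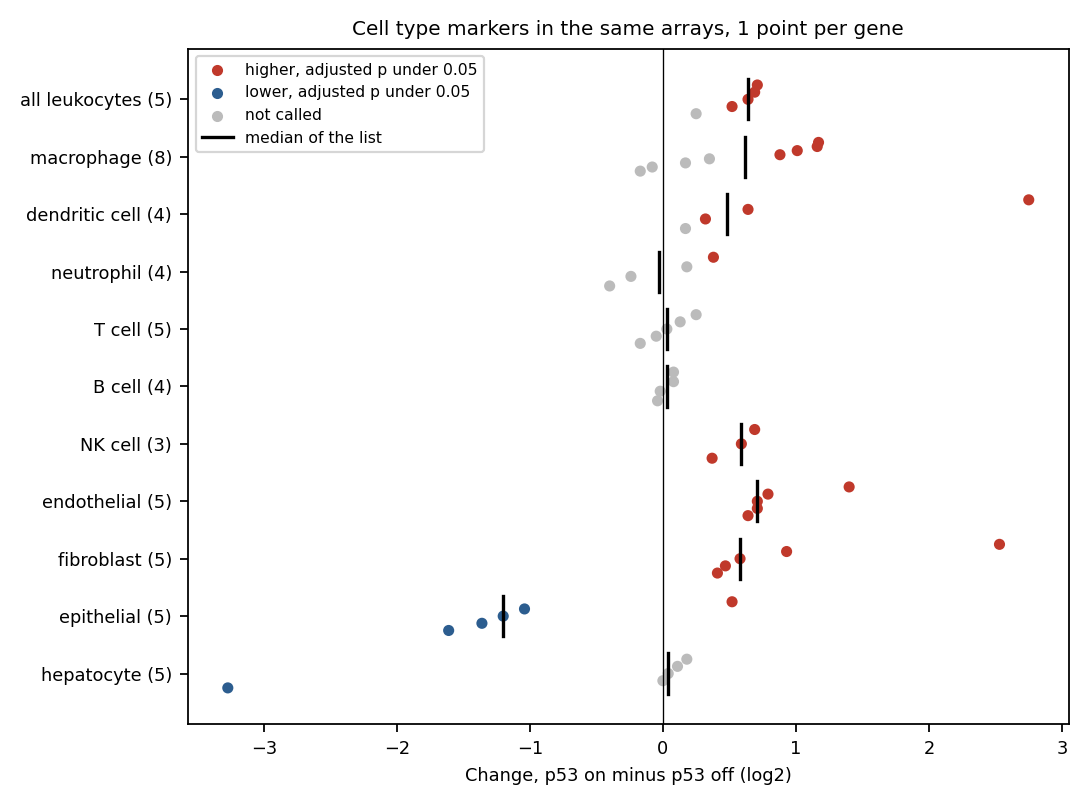
Change of each cell type marker (p53 on minus p53 off, log2), 1 point per gene, with red and blue for genes called higher and lower at an adjusted p under 0.05 and a black line at the list's median. Leukocyte, macrophage, NK cell, endothelial and fibroblast medians lie between 0.581 and 0.707, T and B cell medians at 0.0317 and 0.0286, and the epithelial median is -1.20.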

How the data were processed

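Total RNA of 4 mouse liver tumor samples was extracted with Trizol, amplified by in vitro transcription and hybridized to 1 array each, per the labels' protocols. The values are log2 intensities per probe set, as deposited by the authors. They were made with RMA, which corrects background, equalizes the arrays' distributions and summarises probes, and limma 3.14.4 is named beside it, per the submitters' processing notes. No build or annotation is stated there. Values run from 4.66 to 14.9 and carry no detection call, so dim genes have compressed changes.

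A platform annotation gave exactly 1 symbol to 34945 of 45101 probe sets, several to 932 and none to 9160; 64 were controls. The probe set with the highest mean stood for its gene, which gave 18193 genes without a filter. limma 3.58.1 (R 4.3.3) was fitted as p53 on minus p53 off over all genes, and again over all 45037 probe sets that are not controls, with 2 residual and 5.47 total degrees of freedom and Benjamini-Hochberg adjustment; an adjusted p under 0.05 was called. A permutation test of 2 against 2 arrays cannot go below 0.333 and was not used. The number of arrays limits the precision. The fit was tested on simulated data for the 18193 genes of this comparison and recovered 16.0% of those with a log2 change of 0.5 and 68.0% of those at 1, with 50 genes changed at each size. In that run 146 genes were called, 7 of them genes left unchanged. Far fewer genes were changed there than the 28.7% called in the arrays, which makes the adjustment stricter. The shares recovered therefore do not give the recovery of the real fit.

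The text names all members, up to 6 called genes with the largest change in each of 5 pathway lists, and 3 genes with the nearest profile; exceptions are marked. The members and lists were chosen with earlier results of these data known. Alternatives were a replicate block (also crossed, added after seeing the data), quantile normalization, median centring, spike-in scaling (also relative to the median change of all genes, added after seeing the data), leaving out the dimmest 40% of genes, other choices of probe set, eBayes with trend and robust, weights per array, a minimum log2 change of 1, adjustment over all probe sets, and dropping each array in turn, where the array left alone in a group takes its spread from the other group. Arrays with the same replicate number deviated from their group means with a correlation of -0.154, so the numbers were not taken to pair the samples. Promoters were searched with Python 3.11.15, and figures were drawn with matplotlib 3.10.9.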

Additional observations from a re-analysis of the deposited data

How the results depend on the processing

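Of 143 values of the 9 NF-kB genes over the alternatives, 132 kept their direction and their side of the threshold, 1 lost a call, 4 gained one and 6 changed sign, all 6 in genes that were not called. Nfkb2 was at 0.04 with spike-in scaling. Nfkbiz was at 0.03 under quantile normalization and 0.05 under spike-in scaling, and without single arrays it ran from -0.16 to 0.00. Rel was at -0.01 with median centring and ran from -0.14 to 0.26 without single arrays. The count of NF-kB genes that rose was 2, against 1 with a size threshold of 1 and 1 to 4 without single arrays (1 without p53 off replicate 2, 4 without p53 on replicate 1). Over all genes 5223 were called, 2550 higher and 2673 lower. Testing all probe sets gave 10272 (5076 higher, 5196 lower), and a size threshold of 1 gave 960 (496 higher, 464 lower). Without single arrays the counts ran from 2228 to 5055 (1093 to 2573 higher, 1135 to 2711 lower), with 2228 and 3259 without p53 off replicates 2 and 1, where the p53 on arrays alone give the spread (the SD of their difference was 0.231, and that of the p53 off arrays 0.160). Of the other pathway genes 28 to 48 were called without single arrays (13 to 31 higher, 15 to 18 lower), against 52.

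Spike-in scaling called 4421 genes higher and moved the median change of all genes to 0.154. It was applied to values whose distributions RMA had already equalized, so this shift is not a measure of the amount of RNA. Called genes were 48.8% higher in the values reported, 37.9% with median centring and 70.0% with spike-in scaling. Relative to that median, Nfkbia was at 0.65 and Nfkbie at 1.23, both called. The replicate block gave 4323 calls, 2 NF-kB genes that rose and 6 of the known targets that rose (against 10), and it changed no call of an NF-kB gene; among other named genes it ended those of Traf5 (adjusted p = 0.0582), Ticam1 (0.0840), Tollip (0.0711) and Nkiras1 (0.0622). The crossed block was added because same-numbered arrays tended weakly to deviate in opposite directions (correlation -0.154). It gave 3954 calls and ended those of Otud7b (limma adjusted p = 0.0560), Ticam1 (0.0685), Tollip (0.0798) and Nkiras1 (0.105). Other inhibitors called lower numbered 3, against 1 with the replicate block and 0 with the crossed block. Of 506 values of other named genes 460 kept their call, 46 lost it and 0 changed sign; 11 of the losses were those of Nkiras1. Where no cause is named, it was not tested.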
